A study of Mus musculus with 10 samples.

Results

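The genes of fast excitatory transmission were followed in the whole brains of newborn mice that lacked 1 working copy of *Arid1b*, a subunit gene of the BAF chromatin-remodelling complex. The set held 35 mouse genes, chosen by name with earlier results of these data known: 4 AMPA, 6 NMDA, 5 kainate and 1 delta receptor subunit genes, 6 metabotropic glutamate receptor genes, 8 genes for auxiliary subunits of AMPA receptors, 2 for auxiliary subunits of kainate receptors, and 3 vesicular glutamate transporter genes. All 35 were found among the 18444 genes of the deposited table, and all 35 had a mean of at least 10 normalised counts, the minimum for testing that 17020 genes passed. Poly-A RNA was sequenced from 10 male C57BL/6N mice at postnatal day 3 (P3), with 1 library per mouse. The groups were 5 *Arid1b* heterozygotes (HT) and 5 wild-type animals (WT). The HT allele is a germline CRISPR/Cas9 edit of exon 5 that truncates the protein, so that every cell of the HT brain carried it, and all HT mice came from 1 edited line. No treatment is given in the labels. Which mice were littermates is not given in the sources used here.

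Glutamate is loaded into synaptic vesicles by the vesicular transporters VGLUT1, VGLUT2 and VGLUT3, encoded by *Slc17a7*, *Slc17a6* and *Slc17a8*. Released glutamate opens AMPA receptors (GluA subunits, *Gria* genes), which carry most of the fast synaptic current, NMDA receptors (GluN subunits, *Grin* genes), which admit calcium when the cell is already depolarised, and kainate receptors (GluK subunits, *Grik* genes). Metabotropic receptors (*Grm* genes) act through G proteins. In the newborn rodent brain VGLUT2 and the GluN2B subunit are prominent, and VGLUT1 and GluN2A rise as synapses mature.

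The AMPA subunits are close relatives, and the stretch below shows how alike their transcripts are around the channel pore. The capitals mark the glutamine codon of the Q/R site. In *Gria2* transcripts an adenosine of this codon is edited, which puts arginine into the GluA2 protein and closes the channel to calcium. The sequences are those of the GENCODE M21 transcripts (GRCm38), written 5′ to 3′ on the coding strand, with 21 bases on each side of the codon.
Gria1: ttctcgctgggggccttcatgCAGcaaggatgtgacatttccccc
Gria2: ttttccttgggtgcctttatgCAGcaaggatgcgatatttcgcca
Gria3: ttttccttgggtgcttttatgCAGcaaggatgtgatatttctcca
Gria4: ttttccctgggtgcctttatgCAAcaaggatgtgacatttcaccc
They lie in coding exon sequence at chr11:57243073-57243117 (plus strand, exon 11), chr3:80706890-80706934 (minus strand, exon 11), chrX:41610244-41610288 (plus strand, exon 11) and chr9:4464116-4464160 (minus strand, exon 12). Of the 45 bases shown, 9 in *Gria1*, 3 in *Gria3* and 6 in *Gria4* differed from *Gria2*. Over the whole transcripts the genes were still well separated, since at most 1.45% of the 31-base words of an AMPA subunit gene (*Gria3*) occurred in another gene on the same strand. Read counts per gene do not show editing, which was not measured here.

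Between 25.0 M and 31.2 M estimated reads per library gave the counts (M, 1000000), and a normalised count was close to 1 read. The edited gene followed the labels: *Arid1b* averaged 2101 ± 343 normalised counts in the HT libraries against 3335 ± 203 in the WT libraries (SD, n = 5 per group), with each HT library (1505 to 2372) below each WT library (3108 to 3597). Its log2 fold change was -0.68 ± 0.11 (SE), with an exact permutation p of 0.00794 and a limma adjusted p of 0.390, which was 2.52e-04 without HT 4. Library HT 4 stood apart from the other 9. Its log2 deviations from the gene means fell with transcript length (Spearman's rho -0.50 across genes, against -0.18 to 0.34 in the other libraries), and the median size of these deviations was 0.209, where the others had 0.0772 to 0.108. Because 28 of the 35 genes had a longest coding transcript above the median of the tested genes (3060 bases), values without HT 4 are given beside the comparisons of HT with WT. All markers of the neuronal, glial and progenitor lists were detected in every library.

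The receptor genes were well expressed in the WT brain at P3, and their levels are given as normalised counts per kilobase of the longest coding transcript, a scale on which the order of some genes turned with the transcript length used. *Cnih2*, encoding an AMPA receptor partner that slows channel closing, had the highest level of the set, 5009 ± 294 (SD, n = 5). It was followed by *Cacng4* (2084 ± 61.5) and *Cacng7* (1672 ± 85.9), which encode transmembrane AMPA receptor regulatory proteins (TARPs), and by *Grik5* (1620.5 ± 41.8), encoding the GluK5 subunit that needs another kainate subunit to form a channel. These 4 held ranks 1, 2, 3 and 5 with merged exon length, and ranks 2, 3, 6 and 8 with the median length of the annotated coding transcripts. *Grin2c* (20.8 ± 0.949), *Grin2a* (53.9 ± 6.85) and *Slc17a8* (64.5 ± 4.82) were lowest, and *Grin2c* was lowest with each of the 3 lengths. GluN2C is known mainly from the mature cerebellum.

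Within the AMPA family, *Gria1* and *Gria2* stood at 1468 ± 30.1 and 1421 ± 86.2 per kilobase in WT, a gap smaller than the SD of *Gria2*. That near equality rested on the length: with merged exons *Gria1* was higher (1348 ± 27.6 against 948 ± 57.5), and with the median coding transcript *Gria2* was (2047 ± 124 against 1514 ± 31.1). *Gria4* (630.0 ± 22.5) and *Gria3* (487 ± 13.1) were lower than both under each length. Their own order turned with the median coding transcript, where *Gria3* had 880.3 ± 23.7 and *Gria4* 649 ± 23.2, so that the data rank neither pair. *Gria2* made up 35.4% ± 1.1 (SD, n = 5) of the summed level of the 4 genes. Among the GluN2 genes, *Grin2b* made up 56.3% ± 2.86 and *Grin2d* 37.5% ± 2.71, while *Grin2a* made up 4.44% ± 0.444. The share of *Grin2b* depends strongly on the length used, because its transcripts reach 24060 bases. With the median length of its annotated coding transcripts the share was 94.1%, and its rank in the set moved from 12 to 1. Of the transporters, *Slc17a7* made up 55.2% ± 2.24 and *Slc17a6* 42.1% ± 2.08 per kilobase. That order turned with merged exon length, where *Slc17a6* made up 49.9% and *Slc17a7* 46.2%, so that the data do not rank these transporters. *Slc17a8* was lowest under each length, at 2.65% to 3.87%.

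**Figure D1:**
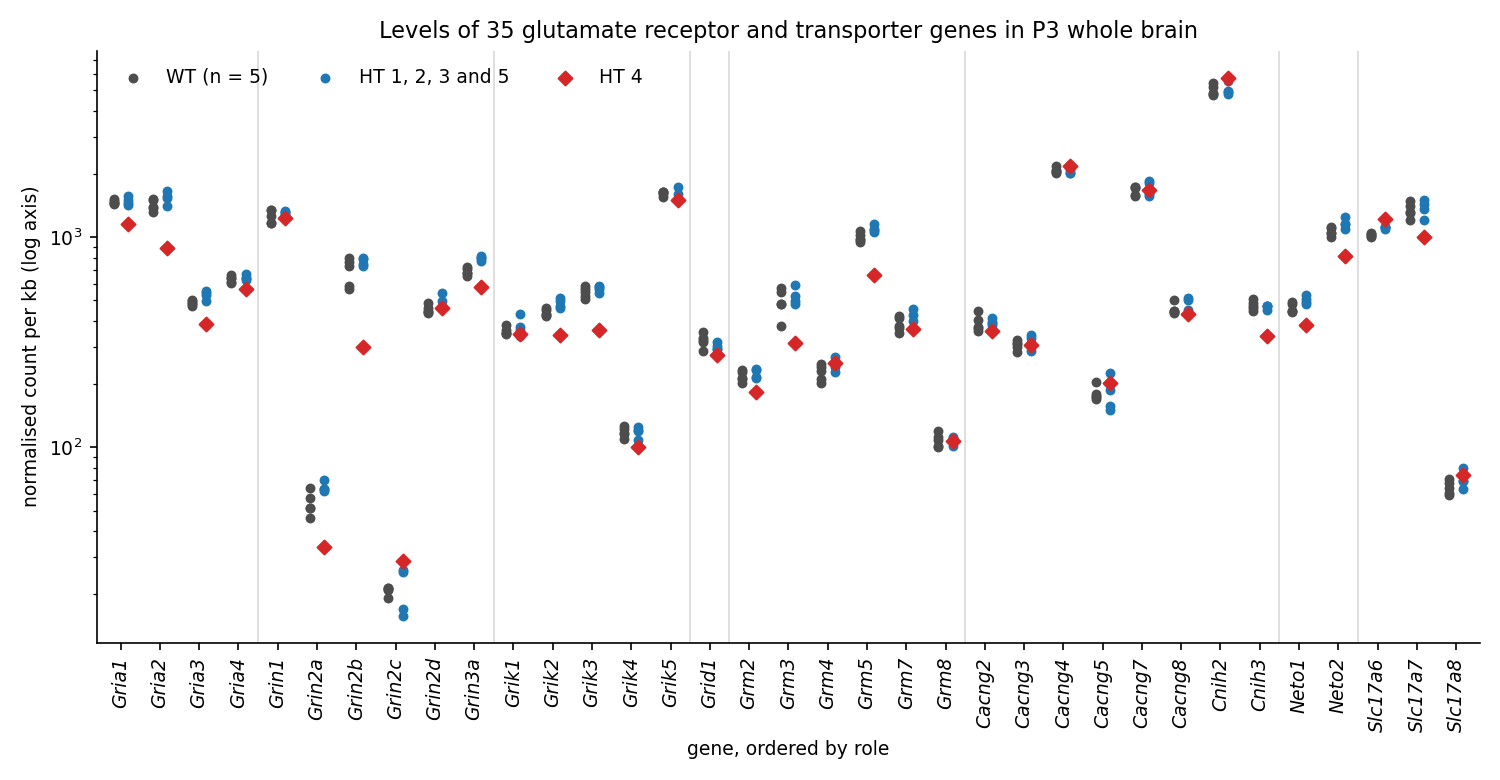
Normalised count per kilobase of the longest coding transcript (log axis) of each of the 35 genes in 5 WT libraries (grey), 4 HT libraries (blue) and library HT 4 (red diamond); vertical lines part the roles. Levels ran from 20.8 (*Grin2c*) to 5009 (*Cnih2*) as WT means, and HT 4 lies below all other libraries in 20 of the 35.

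HT was then compared with WT to ask whether loss of 1 *Arid1b* allele shifted these genes at P3. With all 10 libraries the differences were small, and *Slc17a6* was the 1 gene whose groups did not overlap, at 111% of the WT mean. Of the 35 genes, 0 had a limma adjusted p under 0.05, as did 0% of the 17020 genes tested. An unadjusted p under 0.05 was found for 1 of 35 (2.86%), against 3.41% of all genes, and an exact permutation p under 0.05 also for 1, against 3.9%. Only for 1 gene was each HT library on the same side of each WT library, against a background of 0.629%. There were 20 genes higher and 15 lower in HT, against 46.4% of all genes higher. The median log2 fold change was 0.025, beside -0.0074 over all genes tested, and log2 fold changes ran from -0.12 (*Grid1*) to 0.15 (*Slc17a6*). The SE was under 0.1 for 27 of the 35.

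The picture moved when HT 4 was left out. There were then 28 genes higher in HT, against 49.6% of all genes, and the median log2 fold change was 0.060, beside -0.00081 over all genes. None of the 35 passed the threshold (background 0.0118%), and the smallest adjusted p was 0.222, for *Grin3a*. Unadjusted p values under 0.05 were found for 10 genes, where 8.4% of all genes had one: *Gria2*, *Gria3*, *Grin2a*, *Grin2d*, *Grin3a*, *Grik2*, *Grm5*, *Neto1*, *Neto2* and *Slc17a6*. All 10 were higher in HT, and 4.69% of all genes were higher with such a p. By the exact permutation test 7 had a p under 0.05, against 7.88% of all genes. HT and WT libraries did not overlap for *Grin3a*, *Grik2* and *Slc17a6* (background 2.96%). Removing from each library its trend with transcript length and GC content, together with HT 4, left 6 with an unadjusted p under 0.05 (*Gria3*, *Grin2a*, *Grin2d*, *Grin3a*, *Grm5* and *Slc17a6*; background 7.94%), and 30 were higher (background 54.5%).

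**Figure D2:**
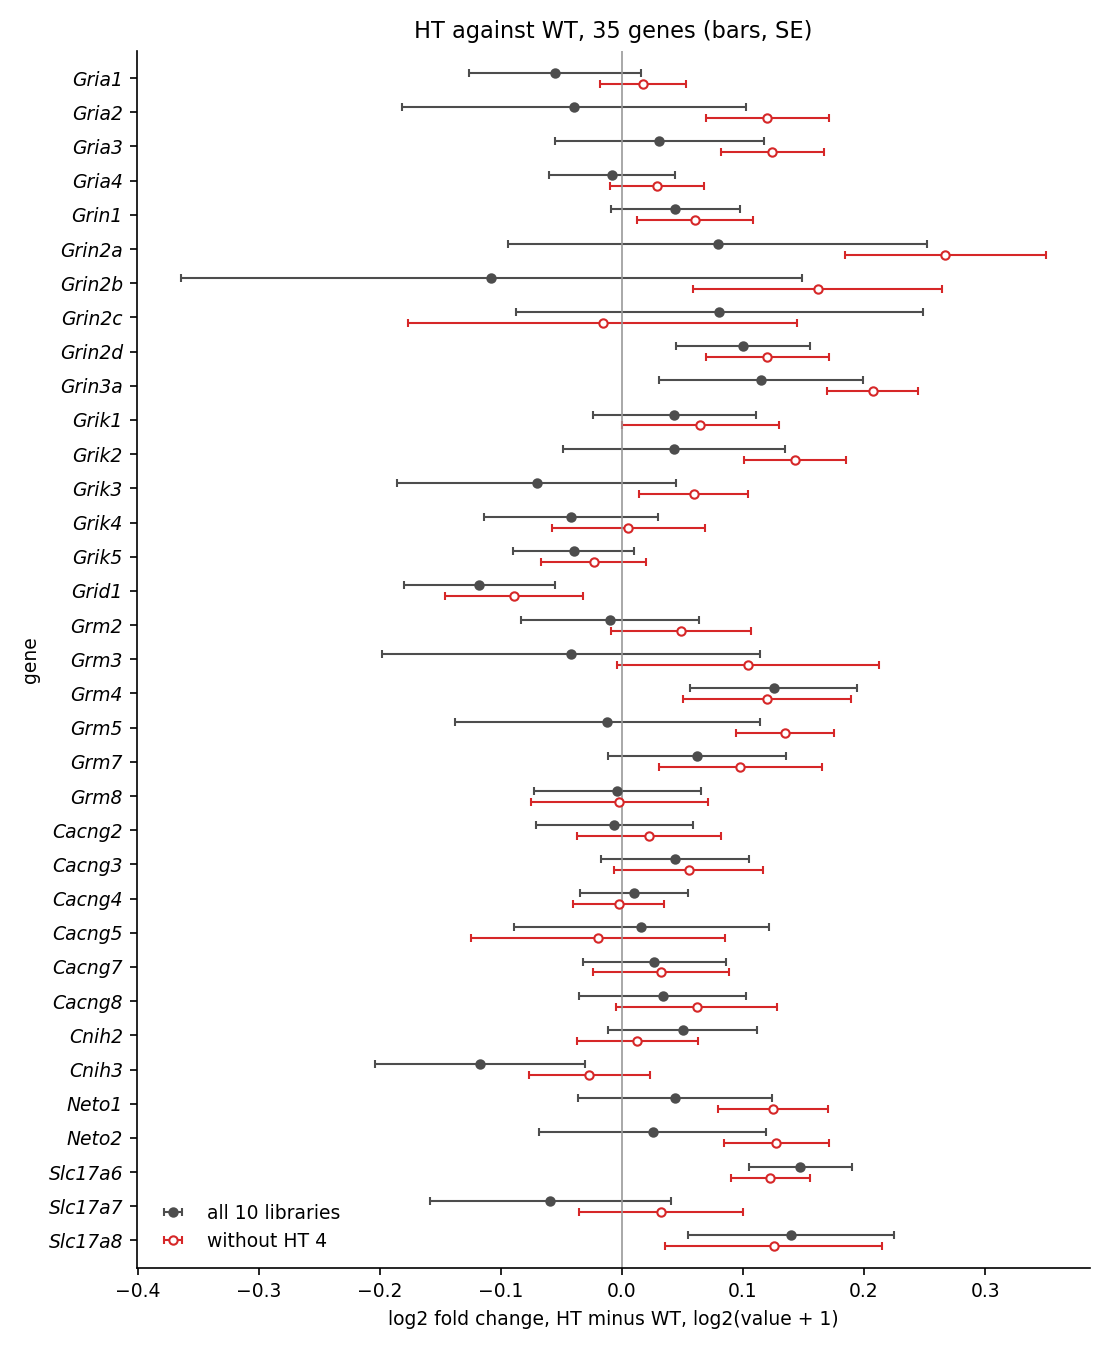
Log2 fold change, HT minus WT, of each of the 35 genes on the log2(value + 1) scale with its SE, fitted with all 10 libraries (filled grey) and without HT 4 (open red). With all libraries 20 points lie above 0, and without HT 4 28 do; *Grin2b* moves furthest, from -0.11 to 0.16.

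Of the vesicular transporters, *Slc17a6* (ENSMUSG00000030500; chromosome 7, 51622006 to 51671119, plus strand) was the 1 gene of the set whose groups parted with all libraries. Here and below, values are normalised counts in the order HT 1 to 5 and WT 1 to 5. *Slc17a6* was read at 4543, 4637, 4636, 5025 and 4631 in HT and at 4199.6, 4143, 4262, 4333 and 4243 in WT. Each HT library lay above each WT library, and HT 4 was the highest of all. The means were 4694 ± 189 and 4236 ± 70.7 (SD, n = 5 each), and the log2 fold change was 0.15 ± 0.043 (SE). The unadjusted limma p was 0.0044 and the adjusted p 1.00. An exact permutation test gave p = 0.00794, which is as low as 10 libraries in groups of 5 allow. Without HT 4 the log2 fold change was 0.12 ± 0.032, with an adjusted p of 0.446, and over all alternatives it ran from 0.12 to 0.18, with adjusted p from 0.446 to 1.00. VGLUT2 is the main transporter of thalamus, midbrain and hindbrain, and it also occurs in the early postnatal cortex. Markers of thalamus and of hindbrain and spinal cord were also mostly higher in HT, beside 46.4% of all genes, and no midbrain list was read. Of the thalamus genes 4 of 4 were, with summed counts of 6070 to 7306 in HT (at most 6513 without HT 4, with 4 of 4 still higher) and 5695 to 6438 in WT. Of the hindbrain and spinal cord *Hox* genes 11 of 12 were (10 without HT 4), with 191 to 1917 in HT and 62.7 to 945 in WT. The ranges of both lists overlapped, and 2 of the *Hox* genes were at 0 in some library. Both lists were added after the values were seen. By library, the mean log2 deviation of the *Hox* genes was -1.1 in HT 1 and -1.5 in HT 2. These lay below WT 1 (-0.089), WT 3 (0.41), WT 4 (0.74) and WT 5 (0.71). WT 2 (-2.8) was the lowest of all libraries, so that the low end of the WT range was this library alone. HT 3 (1.6) and HT 5 (1.8) lay above every WT library. For the thalamus genes HT 1 (-0.11) lay below WT 1 (-0.012), and HT 3, HT 4 and HT 5 above every WT library. Of the cerebellum markers, 7 of 8 were lower in HT, with HT 5 (mean log2 deviation -1.4) below every other library. The part of these lists in the *Slc17a6* difference was not tested. In bulk tissue, more cells of a type and more RNA per cell cannot be told apart.

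*Slc17a7*, the transporter of mature cortical and cerebellar granule neurons, gave 3509.9, 3957, 4389, 2914 and 4199 in HT and 3854, 4316, 4095, 3533 and 3803 in WT. HT 4 was the lowest of the 10 libraries, and the groups overlapped widely. Its log2 fold change was -0.059 ± 0.10 over the 10 libraries, and 0.032 ± 0.068 without HT 4. *Slc17a8*, used by scattered neurons that also release another transmitter, was read at 309, 355, 282, 329 and 309 in HT and 269, 285, 302, 316 and 266 in WT. Its groups overlapped, with HT 2 highest. Its log2 fold change of 0.14 ± 0.085 was close in size to that of *Slc17a6*, but its spread was larger and the unadjusted p was 0.124. Without HT 4 it was 0.13 ± 0.090.

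The AMPA subunit genes were nearly level between groups with all libraries, with log2 fold changes from -0.056 to 0.031. *Gria1* was read at 7875, 8335, 8711, 6399 and 8064 in HT and 7989, 8069, 8391, 8235 and 8032 in WT. Apart from the low HT 4, the HT values bracketed the WT values. The log2 fold change was -0.056 ± 0.071, and 0.017 ± 0.036 without HT 4. *Gria2*, which sets the calcium permeability of the receptor, gave 17269, 16249, 15881, 9195 and 14669 in HT and 14249, 14373, 15729.6, 15615 and 13703 in WT. HT 4 held 57.4% of the mean of the other HT libraries, of which only HT 5 lay below the highest WT library. Over the 10 libraries its log2 fold change was -0.039 ± 0.14, and 0.12 ± 0.051 without HT 4 (unadjusted p 0.0338, adjusted p 0.562). With HT 4 out and the length and GC trend removed it was 0.026, with an unadjusted p of 0.431.

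*Gria3*, an X-linked subunit gene, was read at 2888, 2810.1, 2762, 1995 and 2577 in HT and 2505, 2436, 2578, 2518 and 2612 in WT. HT 1, HT 2 and HT 3 were above every WT library, HT 5 lay within the WT range and HT 4 below it. The log2 fold change was 0.031 ± 0.087, and 0.12 ± 0.043 without HT 4 (unadjusted p 0.0114, adjusted p 0.47). *Gria4* gave 3487, 3470.3, 3619.6, 3072 and 3409 in HT and 3327, 3279, 3470.4, 3580.4 and 3481 in WT. These groups overlapped, and the log2 fold change was -0.0082 ± 0.052, and 0.029 ± 0.039 without HT 4.

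None of the 8 genes for AMPA receptor partners had an unadjusted p under 0.05, with or without HT 4. The TARP genes *Cacng2*, *Cacng3*, *Cacng4*, *Cacng5*, *Cacng7* and *Cacng8* encode proteins that carry AMPA receptors to the synapse and shape their gating, and their log2 fold changes ran from -0.0063 (*Cacng2*) to 0.044 (*Cacng3*), and without HT 4 from -0.020 (*Cacng5*) to 0.062 (*Cacng8*). *Cnih2* averaged 6974 ± 564 in HT against 6727 ± 394 in WT (SD, n = 5 per group), which is a log2 fold change of 0.050 ± 0.062, and 0.013 ± 0.050 without HT 4. *Cnih3*, its paralogue, had the second lowest log2 fold change of the set, -0.12 ± 0.087, which was -0.027 ± 0.050 without HT 4.

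Among the NMDA receptor genes, log2 fold changes ran from -0.11 (*Grin2b*) to 0.12 (*Grin3a*) with all libraries, and from -0.016 (*Grin2c*) to 0.27 (*Grin2a*) without HT 4. *Grin1*, whose product is part of every NMDA receptor, was read at 5446, 5574, 5687, 5284 and 5642 in HT and 5745, 4979, 5758, 5366 and 4995 in WT. HT values lay within the WT range, HT 4 included. The log2 fold change was 0.044 ± 0.054, and 0.060 ± 0.048 without HT 4. Of its 31-base words, 10.7% occurred on the opposite strand in another transcript, chiefly *Grin1os*. The share was 8.62% for *Grin2d*, 8.97% for *Grm2* and 6.31% for *Cacng2*, and at most 2.94% for the other 31 genes. Whether the quantification used the strand of the libraries is not given in the sources used here, so part of the counts of these 4 genes is uncertain.

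*Grin2a*, whose subunit enters receptors as synapses mature, gave 928, 902, 1026, 491 and 924 in HT and 752, 750.4, 933, 839 and 671 in WT. The 4 HT libraries other than HT 4 overlapped WT only through WT 3, and HT 4 was the lowest of all. With all libraries the log2 fold change was 0.079 ± 0.17, and without HT 4 it was 0.27 ± 0.083, the highest of the set, with an unadjusted p of 0.0063 and an adjusted p of 0.446. Words shared with other genes on the same strand made up 12.1% of *Grin2a*, so that part of its count is uncertain. *Grin2b*, the subunit gene of the immature receptor and the longest transcript of the set, was read at 18908, 17878, 19114, 7214 and 17613 in HT and 19077, 13657, 18365, 17629.7 and 14140.4 in WT. HT 4 held 39.3% of the mean of the other HT libraries, and WT 2 and WT 5 also lay below the rest. The log2 fold change was -0.11 ± 0.26, and 0.16 ± 0.10 without HT 4 (unadjusted p 0.149).

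*Grin3a* encodes GluN3A, a subunit that lowers calcium entry and is known from the early postnatal forebrain. It gave 6107, 5969, 5958, 4321 and 5746 in HT and 5309.6, 5078, 5041, 5410.4 and 4921 in WT. Apart from HT 4, which was the lowest of all 10, each HT library lay above each WT library. HT differed from WT by a log2 fold change of 0.12 ± 0.084 with all libraries (unadjusted p 0.195), and 0.21 ± 0.038 without HT 4 (unadjusted p 7.27e-05, adjusted p 0.222). With the length and GC trend removed and HT 4 kept, it was 0.15, with an unadjusted p of 0.00411 and an adjusted p of 1.00. *Grin2d*, found mainly in interneurons and in the brain stem, was read at 2556, 2548, 2939, 2501 and 2696 in HT and 2648, 2376, 2497, 2425 and 2394 in WT. WT 1 lay among the HT libraries and the other WT libraries below them. The log2 fold change was 0.10 ± 0.055, and 0.12 ± 0.051 without HT 4 (unadjusted p 0.0329). *Grin2c* had the lowest counts of the set, with 77.4 to 141 in HT and 93.6 to 105 in WT.

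**Figure D3:**
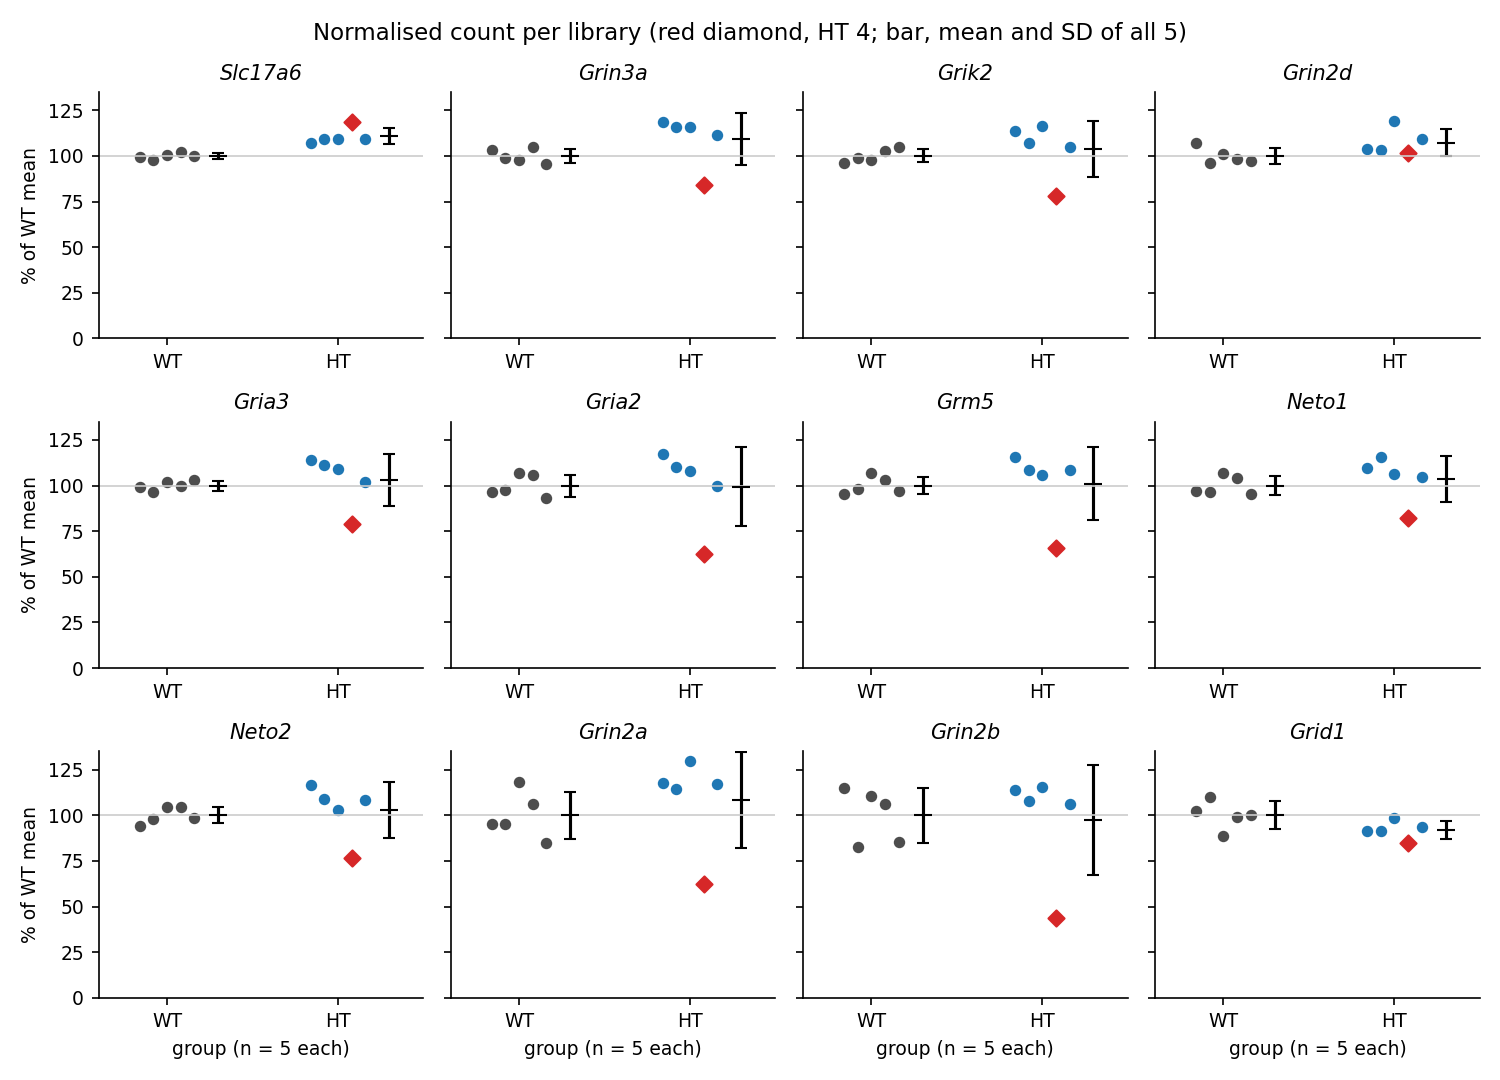
Normalised count of 12 of the genes in each library as a percent of the WT mean, with WT in grey, HT in blue and HT 4 as a red diamond; the bar beside each group is the mean and SD of its 5 libraries. HT 4 is the highest library for *Slc17a6* and the lowest for 10 of the other 11 genes, and only for *Slc17a6* do all 5 HT libraries lie above WT.

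Among the kainate receptor genes, HT 4 was the lowest library for *Grik2*, *Grik3*, *Grik4* and both *Neto* genes. The other 4 HT libraries lay above every WT library for *Grik2* but not for the rest. *Grik2*, encoding the main channel-forming GluK2 subunit, was read at 4695, 4420.3, 4817, 3223 and 4330.2 in HT and 3982, 4081, 4033, 4239.6 and 4327 in WT. HT 5 was only just above the highest WT library, and HT 4 was below every WT library. Over the 10 libraries its log2 fold change was 0.043 ± 0.092, and 0.14 ± 0.042 without HT 4 (unadjusted p 0.00427, adjusted p 0.446). Removing the length and GC trend too gave 0.068, with an unadjusted p of 0.237. The other 4 *Grik* genes had log2 fold changes from -0.070 (*Grik3*) to 0.043 (*Grik1*) and unadjusted p values of at least 0.437 with all libraries, and from -0.023 (*Grik5*) to 0.065 (*Grik1*) without HT 4.

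NETO1 and NETO2 are membrane proteins that bind kainate receptors and slow their currents. *Neto1* gave 4225, 4451, 4091, 3175 and 4036 in HT and 3735, 3722, 4121, 4016 and 3679 in WT. Without HT 4, the lowest library, HT lay in the upper part of the WT range or above it. Its log2 fold change was 0.044 ± 0.080, and 0.12 ± 0.045 without HT 4 (unadjusted p 0.0155, adjusted p 0.483). *Neto2* was read at 6963, 6509, 6161, 4579.5 and 6476 in HT and 5633, 5855, 6254, 6233 and 5898 in WT. Here HT 3 lay within the WT range and HT 4 below it. HT differed from WT by a log2 fold change of 0.025 ± 0.094, and 0.13 ± 0.043 without HT 4 (unadjusted p 0.0106, adjusted p 0.463). With HT 4 out and the trend removed as in *Grik2*, *Neto1* had 0.072 (unadjusted p 0.0906) and *Neto2* 0.066 (unadjusted p 0.143). Neither kept its unadjusted p under 0.05 there. With HT 4 kept and the trend removed, *Neto1* had 0.095 (unadjusted p 0.0472, adjusted p 0.999) and *Neto2* 0.074 (unadjusted p 0.114).

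*Grid1*, which encodes the synapse organiser GluD1, had the lowest log2 fold change of the set. It was read at 1687, 1686, 1822, 1567 and 1729 in HT and 1890.2, 2029, 1635, 1823 and 1847 in WT. WT 3 lay below most HT libraries, and the other WT libraries above all of them. HT differed from WT by a log2 fold change of -0.12 ± 0.062, and -0.089 ± 0.057 without HT 4. The unadjusted p was 0.0821, and it fell below 0.05 only when WT 3 was left out, where *Grm4* also passed and the count for the set was 3.

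Of the metabotropic receptor genes, *Grm5*, which couples to calcium release and is the most abundant of them here, gave 9303, 8747, 8517, 5311 and 8756 in HT and 7666, 7900.3, 8588, 8281 and 7801 in WT. HT 4 held 60.1% of the mean of the other HT libraries, and of those only HT 3 lay below the highest WT library. Its log2 fold change was -0.012 ± 0.13 over the 10 libraries, and 0.13 ± 0.040 without HT 4 (unadjusted p 0.0049, adjusted p 0.446). *Grm2*, *Grm3*, *Grm4*, *Grm7* and *Grm8*, whose receptors lower cyclic AMP and act in part as presynaptic brakes, had log2 fold changes from -0.042 (*Grm3*) to 0.13 (*Grm4*), and from -0.0020 (*Grm8*) to 0.12 (*Grm4*) without HT 4. None of these 5 had an unadjusted p under 0.05 with or without HT 4.

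The low values of HT 4 followed transcript length within the set. HT 4 was the lowest of the 10 libraries for 20 of the 35 genes and the highest for 3 (*Slc17a6*, *Grin2c* and *Cnih2*), while over all genes tested it was lowest for 27.5% and highest for 24.7%. Its median log2 deviation from the mean of the other HT libraries was -0.18 over the 35 genes and 0.014 over all genes. Across the 35 genes this deviation had a Spearman's rho of -0.61 with transcript length, a description over genes of 1 library. *Grin2b* (24060 bases), *Grin2a* (14634 bases) and *Gria2* (10371 bases) held 39.3%, 52.0% and 57.4% of the mean of the other HT libraries. *Grm3*, at 3049 bases, was as low (59.9%) despite its short transcript. Markers of forebrain glutamatergic neurons were also low in HT 4, with a summed count of 29168 against 41583 to 48344 in the other 9 libraries. With all libraries 0 of these 9 markers were higher in HT, and without HT 4 5 were. Which of length, GC content and tissue composition set the low values of HT 4 was not tested.

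**Figure D4:**
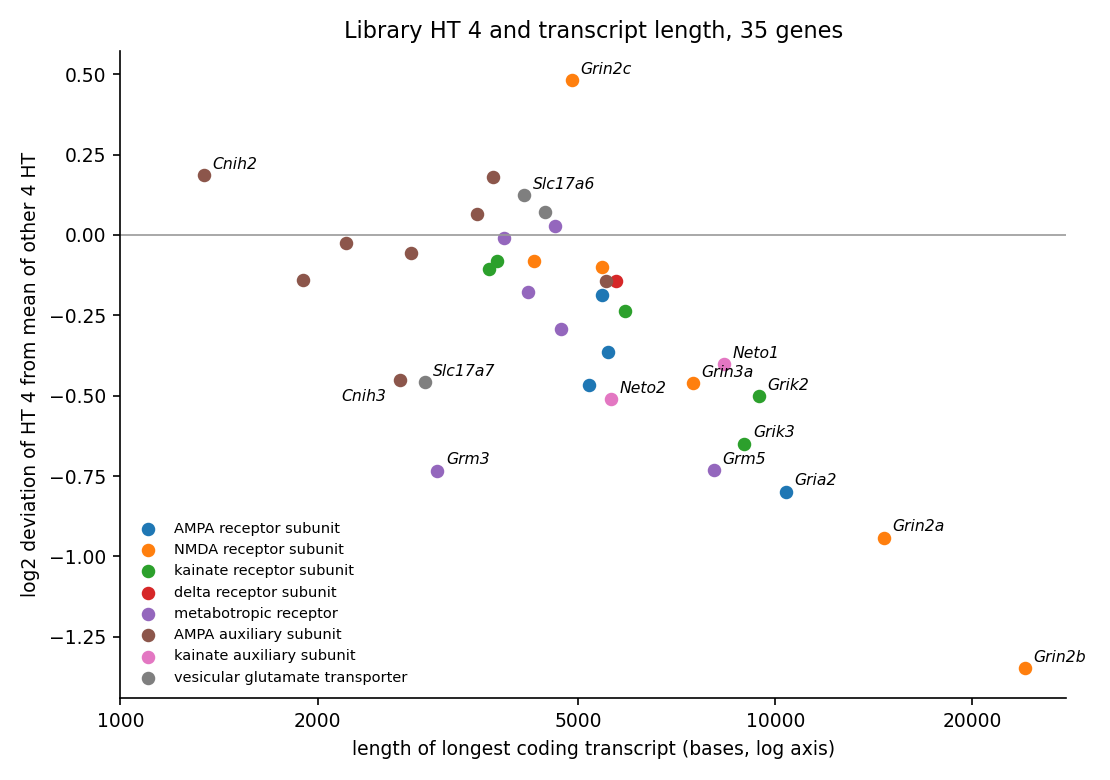
Log2 deviation of library HT 4 from the mean of the other 4 HT libraries (vertical axis) against the length of the longest coding transcript in bases (log axis), 1 point per gene, coloured by role. The deviation falls from 0.19 for *Cnih2* (1343 bases) to -1.35 for *Grin2b* (24060 bases), with *Grin2c* apart at 0.48.

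Ratios between subunit genes of the same library were compared next, because a ratio does not depend on how a library is scaled. A ratio can still carry a library's trend with length where the paired genes differ in length. In 14 ratios, 0 had an exact permutation p under 0.05 with all libraries, and every p adjusted over the 14 was 0.937. The ratio of *Grin2b* to *Grin2a*, whose fall marks the maturation of NMDA receptors, was 20.3, 19.8, 18.6, 14.7 and 19.0 in HT 1 to 5 and 25.3, 18.2, 19.7, 20.99 and 21.1 in WT 1 to 5. HT 4 was lowest and WT 1 highest, and the other libraries overlapped. The difference of the log2 ratio was -0.19 ± 0.12 (SE; exact permutation p = 0.143), and -0.11 ± 0.084 without HT 4. With the length and GC trend removed and HT 4 kept, it was -0.22 (exact permutation p = 0.0635). *Slc17a6* to *Slc17a7* was 1.29, 1.17, 1.06, 1.72 and 1.103 in HT and 1.09, 0.96, 1.04, 1.23 and 1.12 in WT. HT 4 again stood out, here at the top, and the difference was 0.21 ± 0.14 (exact permutation p = 0.167). Without HT 4 it was 0.090 ± 0.086 (exact permutation p = 0.333). The AMPA ratios to *Gria2* had differences from -0.016 (*Gria1*) to 0.071 (*Gria3*), and from -0.10 (*Gria1*) to 0.0042 (*Gria3*) without HT 4.

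Without HT 4, 2 of the 14 ratios had an exact permutation p under 0.05, both at p = 0.0397 and 0.278 after adjustment over the 14. *Grin3a* to *Grin1* was 1.12, 1.07, 1.05, 0.818 and 1.02 in HT and 0.924, 1.02, 0.876, 1.01 and 0.985 in WT. The difference was 0.15 ± 0.051 without HT 4 and 0.071 ± 0.089 with it. *Grik5* to *Grik2* was 1.20, 1.31, 1.36, 1.76 and 1.39 in HT and 1.56, 1.52, 1.54, 1.38 and 1.40 in WT, a difference of -0.17 ± 0.059 without HT 4 and -0.083 ± 0.098 with it (exact permutation p = 0.405). In both ratios the remaining HT libraries still overlapped WT. With the length and GC trend removed and HT 4 kept, the differences were 0.094 for *Grin3a* to *Grin1* and -0.14 for *Grik5* to *Grik2*. Each had an exact permutation p of 0.103.

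**Figure D5:**
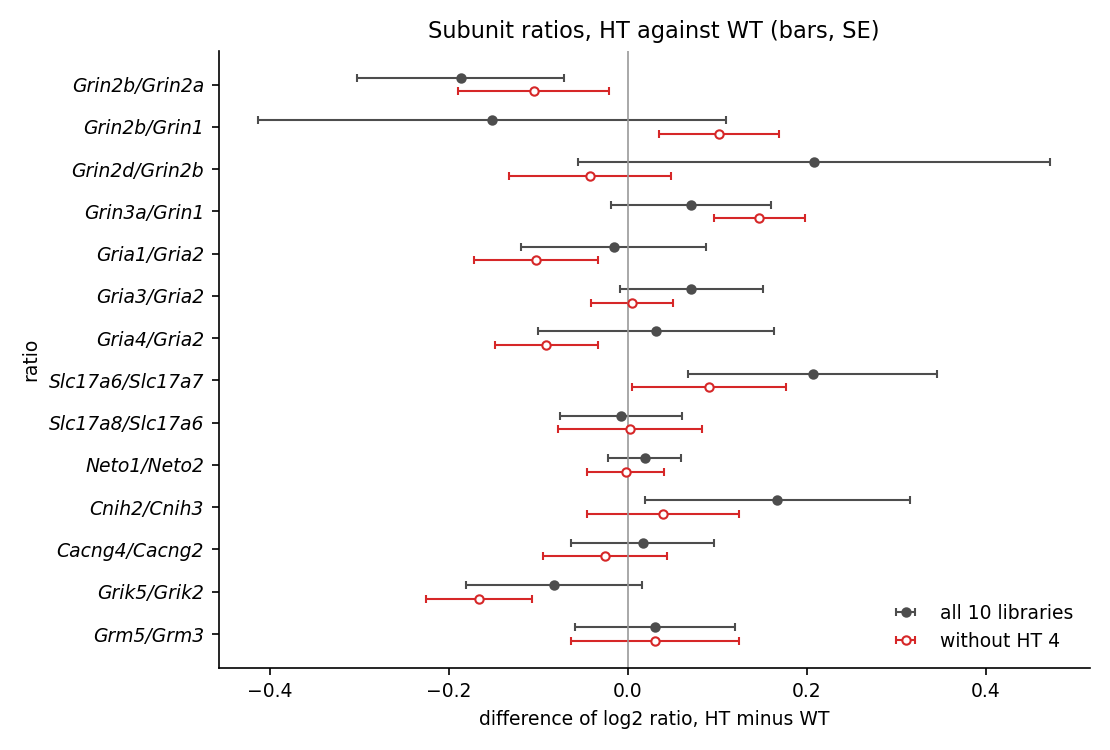
Difference of the log2 ratio of each of 14 gene pairs, HT minus WT, with its SE, from all 10 libraries (filled grey) and without HT 4 (open red). The bars of *Grin2b*/*Grin1* and *Grin2d*/*Grin2b* shrink most without HT 4, and no difference passed adjustment over the 14 ratios.

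The rest of the glutamate pathway was read from a list of 40 further genes, of which 38 were in the table and 37 were tested. None passed the threshold of adjusted p under 0.05. Unadjusted p values under 0.05 were found for 2 genes that were higher in HT and 1 that was lower, beside 3.41% of all genes in both directions. Of the 37, 24 (64.9%) were higher, beside 46.4% of all genes. *Nrn1*, encoding the AMPA receptor-associated protein neuritin, had 1464 ± 249 in HT and 1234 ± 46.2 in WT (SD over 5 libraries), which is a log2 fold change of 0.23 ± 0.092, and of 0.13 without HT 4. Each HT library (1294 to 1899) was above each WT library (1162 to 1274), with HT 4 highest. *Got1*, an aminotransferase that interconverts glutamate and aspartate, had a log2 fold change of 0.12 ± 0.051 (0.11 without HT 4) with overlapping groups. *Homer3*, encoding a scaffold of metabotropic receptors that is abundant in Purkinje cells, had a log2 fold change of -0.27 ± 0.096 (-0.33 without HT 4), with 323 to 434 in HT and 393 to 485 in WT. Of the 8 cerebellum markers 7 were lower in HT beside it (8 of 8 without HT 4), where 9123 of all 17020 genes were lower. Their summed counts were 5935 to 10367 in HT (at most 8602 without HT 4) and 7565 to 9318 in WT. By library, their mean log2 deviation was -1.4 in HT 5, the lowest of all. It was -0.28 to 0.66 in the other HT libraries and -0.32 to 0.47 in WT. The part of these markers in the *Homer3* value was not tested. Without HT 4, 8 of the 37 were higher and 1 lower at an unadjusted p under 0.05, where 4.69% of all genes were higher and 8.4% had such a p in either direction.

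Markers of other cell types were read beside the 35 genes, as medians of their log2 fold changes. Pan-neuronal markers had a median of 0.046 with all libraries (7 of 10 higher in HT) and 0.063 without HT 4 (9 of 10 higher). For GABAergic markers the medians were 0.045 and 0.057, with 5 of 8 higher in both. Astrocyte markers turned from 0.033 (5 of 8 higher) to -0.025 without HT 4 (3 of 8 higher), and oligodendrocyte lineage markers from 0.069 (7 of 9 higher) to -0.0052 (4 of 9 higher). Microglia markers had a median of -0.19, and -0.30 without HT 4, with 0 of 10 higher in both. Their summed counts were 2005 to 3035 in HT (at most 2521 without HT 4) and 2149.8 to 3617 in WT. Progenitor and cell cycle markers had a median of -0.17, with 1 of 7 higher and 2 lower at an unadjusted limma p under 0.05. Without HT 4 it was -0.25, with 0 of 7 higher and 3 lower at such a p. Of all 17020 genes tested, 329 were lower with such a p, and 631 without HT 4. Also without HT 4, 2 microglia markers and 1 astrocyte marker were lower with such a p. In that setting 2 pan-neuronal markers and 1 GABAergic marker were higher, beside 798 of all genes. The part of these cell types in the values of the receptor genes was not tested. The spread between mice set the precision of all these comparisons. The median within-group SD of the 35 genes on the log2 scale was 0.119, and 0.0866 without HT 4, beside 0.159 and 0.124 over all genes tested. That comparison is not matched for level. Among genes of like level, 21 of the 35 had an SD above the median, and 23 without HT 4. *Slc17a6* had the smallest SD of the set, 0.0436 with all libraries and 0.0205 without HT 4. Among genes of like level, its SD was at percentile 7.58 with all libraries, where *Grm8* was lower at 6.70. Without HT 4 *Slc17a6* was at percentile 0.705, while *Grin2b* was at percentile 98.5 and *Grm3* at 98.3.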

How the data were processed

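Whole-brain libraries of 5 HT and 5 WT mice were compared. The authors quantified reads with Salmon 1.1.0 on GRCm38 with GC bias correction, imported them with tximport and divided them by DESeq2 1.30.1 size factors. The deposited table holds the resulting normalised read count per gene and library, a signal value that is not whole. Only 6.51% to 21.0% of small values lay within 0.02 of a multiple of a fitted value of 1 read. That value was searched for only near 1. Count tests were therefore not run. Groups and replicate numbers came from the labels.

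Gene names, lengths and positions came from GENCODE M21 (18431 of 18444 genes matched). Values were analysed as log2(value + 1), a scale that understates the change of low genes, in R 4.3.3 with limma 3.58.1 (limma-trend, robust empirical Bayes, two-sided, Benjamini-Hochberg over the 17020 genes with a mean of at least 10, threshold 0.05). Exact two-sided permutation tests used all 252 assignments of libraries, or 126 without HT 4, with a smallest p of 0.00794 in both. The workflow was tested on simulated data. Levels between genes were compared per kilobase of the longest coding transcript. Alternatives covered pseudocount, filter, scaling, weights, a replicate block, length and GC trend, and each library left out. Precision was taken from the spread between mice.

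The members and gene lists were chosen with earlier results of these data known. All members could be named. Values in every library were given for the 4 *Gria* genes, *Grin1*, *Grin2a*, *Grin2b*, the 3 *Slc17a* genes, members with an unadjusted limma p under 0.05 with all libraries or without HT 4, and the highest and lowest log2 fold change. Other glutamate genes were named at an unadjusted p under 0.05. The thalamus and *Hox* lists and 1 alternative, sample weights with the trend removed, were added after seeing the data.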

Additional observations from a re-analysis of the deposited data

Results flagged for a closer look

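The values of each gene and ratio were checked in each group of 5 libraries for 1 library far from the other 4, as the gap to its nearest neighbour divided by the range of the group. Chance gives about 1 in 20 groups, or 4.9 of the 98 groups checked, and 16 were found. HT 4 was the far library in 13 of them. The genes share this library, so the 13 are not independent of each other.

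In HT, HT 4 was the lowest library by such a gap for *Grin2a* (0.769 of the range), *Grin2b* (0.874), *Grin3a* (0.798), *Grik3* (0.802), *Grm5* (0.803) and *Cnih3* (0.830). It was the highest for *Slc17a6* (0.805). Among ratios in HT, it was lowest for *Grin2b*/*Grin2a* (0.729) and *Grin2b*/*Grin1* (0.886), and highest for *Grin2d*/*Grin2b* (0.863), *Gria3*/*Gria2* (0.811), *Gria4*/*Gria2* (0.721) and *Cacng4*/*Cacng2* (0.716). The ratio of *Grin2b* to *Grin1* was 1.37 in HT 4 and 2.74 to 3.47 in the other 9 libraries.

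In WT, WT 2 was lowest for *Grin2c* (0.823), at 93.6 normalised counts beside 103 to 105 in the others. WT 3 was highest for *Cacng8* (0.818), and WT 5 was highest for the ratio of *Grm5* to *Grm3* (0.714), in which its *Grm3* count of 1157 was the lowest of the group.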

How the results depend on the processing

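None of the 35 genes passed the adjusted threshold under any of the 22 alternatives (smallest adjusted p 0.222), and 13 of the 35 kept their direction under each. The count with an unadjusted p under 0.05, 1 with all libraries, was 6 with sample weights (beside 7.52% of all genes), 3 with the length and GC trend removed (4.61%), 6 with that and HT 4 left out (7.94%), and 5 with sample weights and the trend removed together (7.64%), a setting chosen after seeing the data. Leaving out 1 library gave 1 to 10, with 10 without HT 4 (8.40% of all genes) and 3 without WT 3 (2.63%). For the 37 other glutamate genes the count, 3 with all libraries, was 7 with sample weights, 6 with the trend removed, 8 with that and HT 4 left out, 10 with weights and trend removal together, and 1 to 9 with 1 library left out (1 without WT 4, 9 without HT 4). Ratios with an exact permutation p under 0.05 numbered 0 to 2 with 1 library left out (2 without HT 4, 1 without WT 2). *Arid1b* passed the threshold with sample weights (-0.60), the trend removed (-0.66), that without HT 4 (-0.61) and weights with trend removal (-0.63), and ran from -0.73 to -0.57 with 1 library left out. Per kilobase of merged exons and of the median coding transcript, *Gria2* made up 30.6% and 40.2% of its family, *Grin2b* 60.3% and 94.1%, and *Slc17a6* 49.9% and 37.2%. The causes were not tested, apart from the lengths themselves.

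Apart from *Cnih3*, each gene whose direction turned lay within its SE of 0 with all libraries. The log2 fold changes that turned were, with the length and GC trend removed, *Gria2* 0.0065, *Gria4* 0.031, *Grm2* 0.010, *Grm5* 0.035, *Grm8* 0.017, *Cacng2* 0.025, *Cacng8* -0.0022 and the ratio *Cacng4*/*Cacng2* -0.00044. With that and HT 4 left out they were *Gria1* 0.0032, *Gria2* 0.026, *Gria4* 0.018, *Grin2b* 0.034, *Grin2c* -0.013, *Grik3* 0.037, *Grik4* 0.0018, *Grm2* 0.063, *Grm3* 0.11, *Grm5* 0.10, *Cacng2* 0.018, *Cacng5* -0.0078, *Cnih3* 0.00063 and *Slc17a7* 0.061. Sample weights gave *Gria1* 0.011, *Gria2* 0.082, *Gria4* 0.024, *Grin2b* 0.080, *Grik3* 0.023, *Grm2* 0.045, *Grm3* 0.041, *Grm5* 0.10, *Cacng5* -0.013 and *Slc17a7* 0.032. Weights with the trend removed gave *Gria1* 0.0030, *Gria2* 0.024, *Gria4* 0.028, *Grik3* 0.010, *Grik4* 0.00050, *Grm2* 0.052, *Grm3* 0.030, *Grm5* 0.084, *Cacng2* 0.013, *Cacng5* -0.0048 and *Slc17a7* 0.037. Upper-quartile scaling gave *Gria4* 0.00098, *Grm8* 0.0054 and *Cacng2* 0.0029, and quantile normalisation *Grm8* 0.0089.

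With 1 library left out, the log2 fold change ran for *Gria1* from -0.094 to 0.017, *Gria2* -0.11 to 0.12, *Gria3* -0.0090 to 0.12, *Gria4* -0.030 to 0.029, *Grin2b* -0.19 to 0.16, *Grin2c* -0.016 to 0.20, *Grik1* -0.014 to 0.075, *Grik2* -0.0018 to 0.14, *Grik3* -0.11 to 0.059, *Grik4* -0.074 to 0.0054, *Grm2* -0.043 to 0.049, *Grm3* -0.13 to 0.10, *Grm5* -0.068 to 0.13, *Grm8* -0.030 to 0.033, *Cacng2* -0.036 to 0.044, *Cacng4* -0.0087 to 0.027, *Cacng5* -0.061 to 0.085, *Cacng7* -0.0041 to 0.057, *Cacng8* -0.0043 to 0.071, *Neto2* -0.024 to 0.13 and *Slc17a7* -0.12 to 0.032. For ratios it ran for *Grin2b*/*Grin1* from -0.24 to 0.10, *Grin2d*/*Grin2b* -0.042 to 0.30, *Gria1*/*Gria2* -0.10 to 0.050, *Gria4*/*Gria2* -0.091 to 0.091, *Slc17a8*/*Slc17a6* -0.054 to 0.029, *Neto1*/*Neto2* -0.0028 to 0.045, *Cacng4*/*Cacng2* -0.041 to 0.051 and *Grm5*/*Grm3* -0.0031 to 0.11.

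HT and WT share replicate numbers. The correlations of same-numbered libraries' deviations from their group means were 0.082 to 0.093 for 4 numbers and -0.10 for number 4, beside -0.20 to 0.14 (mean -0.012) for the 20 pairs with different numbers, and 6 of 10 libraries correlated best with their own number. No correlation of same-numbered libraries was over 0.1, so the numbers were not taken as pairs, although whether some mark a shared origin was not settled. With the replicate block, 0 of the 35 genes passed the threshold, 1 reached an unadjusted p under 0.05, and the median log2 fold change was 0.025. The smallest p that permuting signs within 5 pairs can give for a ratio is 0.0625. The gene with the lowest counts, *Grin2c*, had 77.4 or more. At such counts the sampling of reads adds to the spread between libraries, and its share was not measured.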
